A study of Homo sapiens with 6 samples.

Results

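The genes described here are 32 genes of glucose metabolism and hypoxia signaling, chosen by name: the glucose transporters, hexokinases and enzymes of glycolysis, the enzymes of the pentose phosphate pathway, and HIF1A with 4 of its targets. In the mRNA-seq data they account for 73 of 38438 RefSeq transcripts and 32 of 20109 gene names. A mean of at least 1 RPKM (reads per kilobase, scaled to the library's mapped reads) over the libraries, the limit for testing, was reached by 56 of these transcripts, which belong to 30 of the genes. The transcripts of VEGFA and ANKRD37 were below it. In the lists of LARP1 binding sites the named member transcripts have 9 of 3948 entries under growing conditions and 6 of 3947 under mTOR-inactive conditions.

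The study asked which mRNAs the RNA-binding protein LARP1 contacts in HEK293T, an established line from human embryonic kidney that carries SV40 large T antigen, and how this changes when mTOR is inactive. Growing cells were kept in medium with 10% serum, and mTOR-inactive cells received PP242, which inhibits the mTOR kinase, at 2.5 µM for a time that the labels do not give. LARP1 contacts were mapped by PAR-CLIP in 1 library per condition, from cells labeled with 100 µM 4-thiouridine for 14 hr and irradiated with 150 mJ/cm2 of ultraviolet light, so that crosslinked uridines are read as cytidines. The mRNA-seq comprised 2 libraries per condition from cells without 4-thiouridine, and nothing in the labels says whether these came from separate cultures, so that p-values measure the spread between libraries, which may be technical.

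Glycolysis converts glucose to pyruvate in the cytosol, yielding ATP, and lactate dehydrogenase reduces pyruvate to lactate. The pentose phosphate pathway branches off at glucose 6-phosphate, and its oxidative arm makes NADPH while its nonoxidative arm makes ribose 5-phosphate for nucleotides. HIF-1 is a transcription factor whose alpha subunit, HIF1A, is hydroxylated by the EGLN prolyl hydroxylases and degraded when oxygen is present. Many glycolytic genes are known HIF-1 targets, and mTOR signaling is known to raise HIF1A and glycolytic gene expression in several cell types.

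The libraries were alike in depth and in the labeled cell type. The steps between low RPKM values put the other libraries at 1.04 to 1.06 times the depth of the first growing library. The number of reads is not known. Of 8 genes usually detected in HEK293 lines, 7 were above 1 RPKM, with VIM at 210 to 239 RPKM, and PAX2 was at 0.566 to 0.652 RPKM. VIM and NEFM passed the test as higher after PP242, and their part in the results below was not tested. Of 8 genes expected near 0, PTPRC, ALB, MYH7, GFAP and SFTPC were at 0 to 0.157 RPKM, and CD3E, HBB and INS had no row.

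The 32 genes span a range from 0.575 to 1389 RPKM. Since reads that matched several transcripts were divided evenly among them by the authors, the RPKM of a gene's transcripts was added up to give 1 level per gene. This sum was chosen after the data were seen. GAPDH, which oxidizes glyceraldehyde 3-phosphate, had the highest level, at 1389 and 1374 RPKM in growing cells and 1375 and 1371 RPKM in mTOR-inactive cells. ENO1, the major enolase, followed at 1017 to 1044 RPKM and LDHB, a lactate dehydrogenase subunit, at 797 to 813 RPKM. The ranges of these 3 genes do not overlap, whereas those of the next genes, ALDOA at 518 to 540 RPKM and TPI1 at 514 to 529 RPKM, overlap. At the other end were SLC2A3, ALDOC, PFKFB4, EGLN3 and ANKRD37, all under 5 RPKM. In all, 9 of the 32 genes had a level of at least 100 RPKM. Several of these abundant mRNAs have processed pseudogenes or near-identical copies that can take a part of their reads, such as PGAM4 for PGAM1 and TPI1P3 for TPI1.

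**Figure D1:**
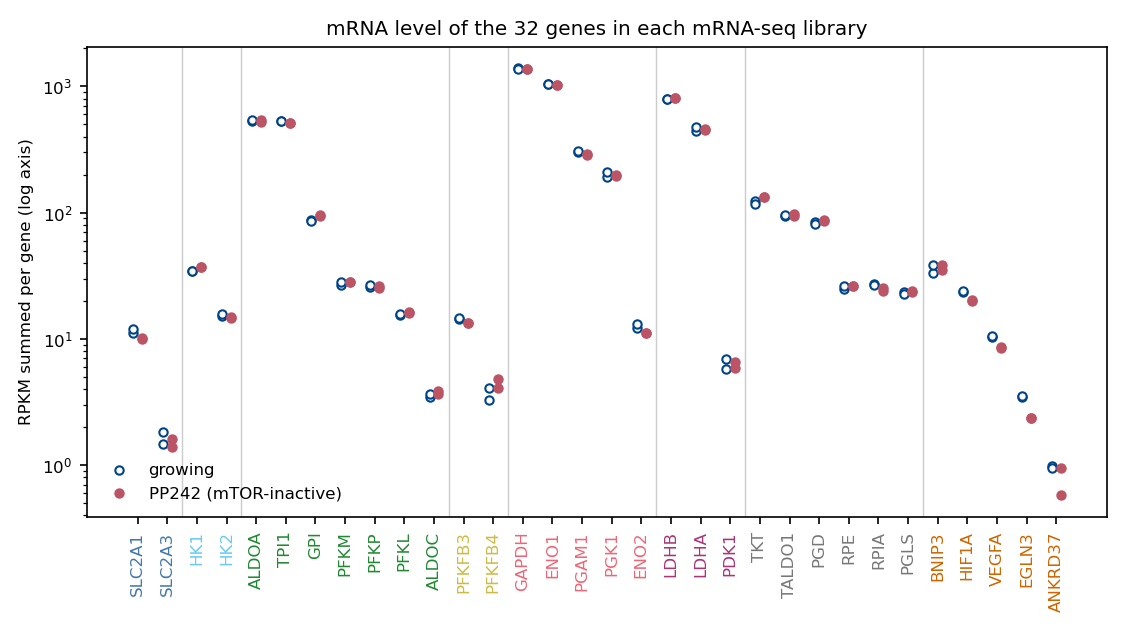
The RPKM summed per gene is plotted on a log axis for each of the 32 genes, with 1 point per mRNA-seq library, open for growing and filled for PP242-treated cells, and vertical lines between the functional groups. Levels run from 0.575 RPKM for ANKRD37 to 1389 RPKM for GAPDH, and the points of a gene lie close together compared with the distances between genes.

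Most of these genes were not called between growing and mTOR-inactive cells, and the differences in mRNA level were small. In bulk RNA, fewer cells with an mRNA and less of it per cell cannot be told apart. By transcript, HIF1A and EGLN3 were lower and GPI was higher in mTOR-inactive cells. With RPKM summed per gene, VEGFA, SLC2A1, ENO2 and PGAM1 were also lower and TKT was also higher. EGLN3 was at 0.752 of its level in growing cells on the log2(RPKM + 1) scale, the largest of these differences. With a pseudocount of 10 its log2 change was -0.12, smaller than the -0.17 of HIF1A and the -0.14 of VEGFA, and with a pseudocount of 0.1 it was -0.54. Of the 31 genes tested, 23 (74.2%) were not called, where 4.27% of all genes were called higher and 9.15% lower. A gene that was not called is not thereby shown to be unchanged.

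By limma, at a Benjamini-Hochberg adjusted p under 0.05, 1 of 56 member transcripts (1.79%) was higher, where 3.48% of all 21014 transcripts tested were higher. For the opposite direction, 4 of the 56 (7.14%), 3 of HIF1A and 1 of EGLN3, were lower, where the share over all transcripts was 6.45%. The median log2 change was -0.0084 over the member transcripts and -0.0013 over all transcripts. These shares are near those of all transcripts. With RPKM summed per gene, 2 of 31 member genes (6.45%) were higher and 6 (19.4%) were lower, where the shares over 12415 genes were 4.27% and 9.15%, and the difference between these shares was not tested. With the libraries scaled to the same median instead, the calls over all genes were split into 708 higher and 873 lower in place of 530 and 1136, and those of the members into 3 and 3, with SLC2A1, ENO2 and PGAM1 not called (limma, adjusted p = 0.0551, 0.0616 and 0.107) and HK1 called higher (limma, adjusted p = 0.0317). The median log2 change of the sums was -0.017 over the members and -0.0050 over all genes. ANKRD37 alone stayed below the limit for testing. Both mTOR-inactive libraries lay above both growing libraries for 7 of the 31 genes (22.6%, against 27.9% of all genes), and below them for 11 (35.5%, against 31.5%). For the other 13 genes the conditions overlapped.

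**Figure D2:**
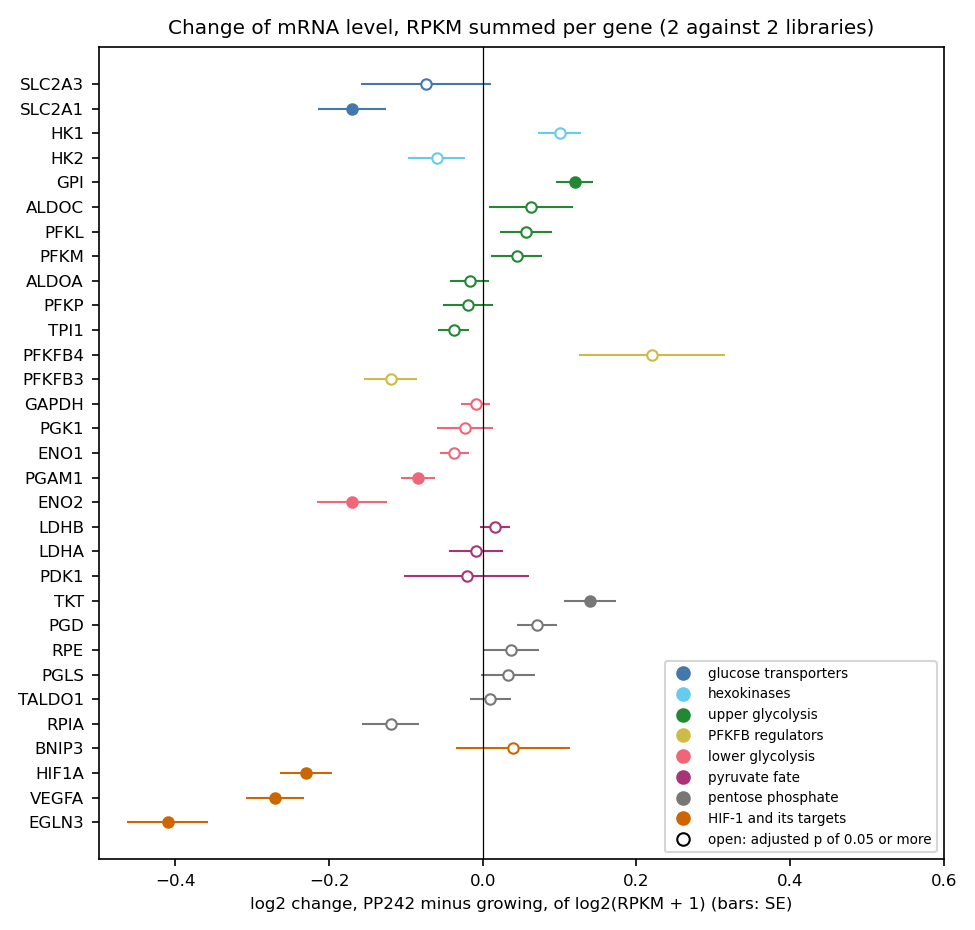
For the 31 genes tested, the plot gives the log2 change of log2(RPKM + 1) with RPKM summed per gene, PP242 minus growing, with bars for the standard error, colors for the functional groups and filled points for an adjusted p under 0.05. EGLN3, VEGFA and HIF1A lie farthest to the left, at -0.41, -0.27 and -0.23, and most enzymes of glycolysis and of the pentose phosphate pathway lie within 0.1 of 0.

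In the HIF-1 group, 3 of the 4 genes tested fell, where 9.15% of all genes did. EGLN3 (chr14:34393433-34931980, minus strand, GRCh37), a prolyl hydroxylase that targets HIF1A for degradation and is itself induced by HIF-1, had 3.45 and 3.51 RPKM in growing cells and 2.37 RPKM in both mTOR-inactive libraries. The conditions did not overlap, and EGLN3 fell by 0.41 on the log2 scale (SE 0.053, n = 2 and 2; limma, adjusted p = 0.00283). VEGFA (chr6:43737921-43754224, plus strand), the vascular growth factor, had 10.4 and 10.5 RPKM in growing cells and 8.41 and 8.63 RPKM after PP242, as the sum of 18 transcripts. Again the conditions did not overlap, and the log2 change was -0.27 (SE 0.038; limma, adjusted p = 0.00438). Its 16 named transcripts each had 0.449 to 0.615 RPKM, so that none was tested alone.

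HIF1A (chr14:62162231-62214977, plus strand), the oxygen-regulated subunit, had 23.3 and 24.1 RPKM in growing cells and 19.8 and 20.4 RPKM in mTOR-inactive cells. The log2 change was -0.23 (SE 0.034; limma, adjusted p = 0.00546), and its 3 transcripts, which share most of their reads, had limma adjusted p-values of 0.0155 to 0.0239 when tested alone. Each of the 3 genes stayed past the threshold in the 4 fits that left out 1 library and used sums per gene, where the limma adjusted p was at most 0.0175 for EGLN3, 0.0212 for VEGFA and 0.0264 for HIF1A. The transcript NM_001530.3 of HIF1A alone lost its call without growing library 1, growing library 2 or mTOR-inactive library 1, at limma adjusted p = 0.0520, 0.0762 and 0.0710.

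BNIP3, a mitophagy receptor and HIF-1 target, had 33.0 and 38.7 RPKM in growing cells and 34.9 and 38.7 RPKM in mTOR-inactive cells. Its conditions overlapped, and the log2 change of 0.039 (SE 0.074; limma, adjusted p = 0.762) was smaller than the difference between the libraries of 1 condition. ANKRD37, an ankyrin repeat protein induced by hypoxia, was at 0.976 and 0.940 RPKM in growing cells and at 0.575 and 0.942 RPKM after PP242. One mTOR-inactive library was thus low and the other was within the range of the growing libraries.

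**Figure D3:**
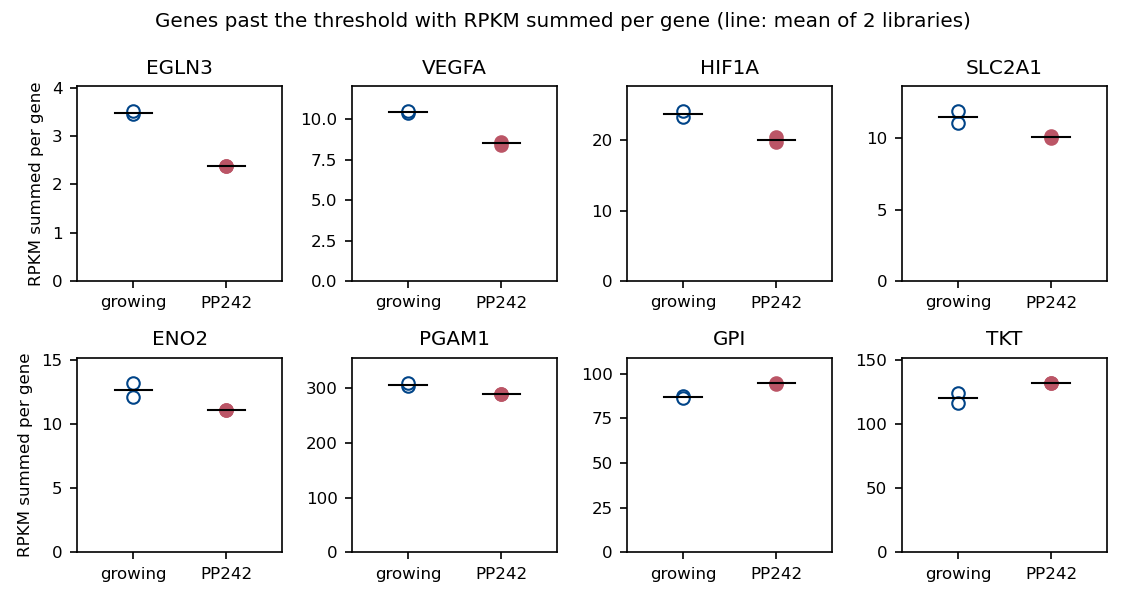
The RPKM summed per gene is plotted from 0 for the 8 genes past the threshold, with 1 point per library and a line at the mean of 2 libraries. In every panel both PP242 points lie on 1 side of both growing points, and the panels for PGAM1 and GPI show differences that are small beside the level.

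Of the glucose transporters, SLC2A1 (GLUT1), the main transporter of most cultured cells, had 11.1 and 11.9 RPKM in growing cells and 10.0 and 10.2 RPKM after PP242. The log2 change was -0.17 (SE 0.044; limma, adjusted p = 0.0422). SLC2A3 (GLUT3) had 1.46 and 1.82 RPKM in growing and 1.40 and 1.61 RPKM in mTOR-inactive cells, with overlapping conditions. The call of SLC2A1 was lost without growing library 2, mTOR-inactive library 1 or mTOR-inactive library 2, at limma adjusted p = 0.164, 0.132 and 0.0927, and in the test by transcript its limma adjusted p was 0.0526.

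The hexokinases, which trap glucose in the cell as glucose 6-phosphate, were not called. HK1 had 34.7 and 34.6 RPKM in growing cells and 37.1 and 37.4 RPKM in mTOR-inactive cells, which did not overlap (log2 change 0.10, SE 0.028; limma, adjusted p = 0.0504). HK1 was called higher with scaling to the same median, quantile normalization, a limit of 5 RPKM, a pseudocount of 10 or a replicate block. The limma adjusted p was 0.0317 to 0.0482 there, and HK1 was not called in the other alternatives. HK2 had 15.1 and 15.6 RPKM in growing cells and 14.5 and 14.9 RPKM after PP242, with a log2 change of -0.060.

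In upper glycolysis, from glucose 6-phosphate to the triose phosphates, 1 of 7 genes rose, where 4.27% of all genes did. This was GPI (chr19:34850385-34893318, plus strand), the isomerase that makes fructose 6-phosphate, which had 87.4 and 86.2 RPKM in growing cells and 94.9 and 94.3 RPKM in mTOR-inactive cells. The log2 change was 0.12 (SE 0.024; limma, adjusted p = 0.0174). In the test by transcript GPI was the single member called higher (NM_001184722.1, limma adjusted p = 0.0368). GPI was not called in any of the 4 fits that left out 1 library, where the limma adjusted p of its sum was 0.0501 to 0.0754.

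The other genes of this stretch were not called. For the phosphofructokinases, the committing step of glycolysis, the log2 changes were 0.056 for PFKL, 0.044 for PFKM and -0.019 for PFKP. The aldolases had log2 changes of -0.017 for ALDOA and 0.063 for ALDOC. TPI1 (chr12:6976283-6980112, plus strand), which interconverts the triose phosphates, had 527 and 529 RPKM in growing cells and 515 and 514 RPKM after PP242. Its conditions did not overlap, although the log2 change was only -0.038 (SE 0.020; limma, adjusted p = 0.232).

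The PFKFB enzymes set the level of fructose 2,6-bisphosphate, an activator of phosphofructokinase, and neither was called. PFKFB3 had 14.3 and 14.7 RPKM in growing cells and 13.3 RPKM in both mTOR-inactive libraries (log2 change -0.12, SE 0.035; limma, adjusted p = 0.0655). PFKFB4 had 3.26 and 4.06 RPKM in growing cells and 4.05 and 4.81 RPKM after PP242. Its log2 change of 0.22 was the largest positive value among the members, but the conditions overlapped (SE 0.095; limma, adjusted p = 0.166).

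In lower glycolysis 2 of 5 genes fell, where 9.15% of all genes did, and neither was called with the libraries scaled to the same median. PGAM1, a phosphoglycerate mutase, had 303 and 309 RPKM in growing cells and 288 and 289 RPKM in mTOR-inactive cells, a log2 change of -0.084 (SE 0.022; limma, adjusted p = 0.0454). Its near-identical copy PGAM4 was listed at 67.6 and 69.2 RPKM in growing cells and at 65.0 and 64.8 RPKM after PP242, and the reads of the 2 genes may not be separable. ENO2, the enolase known from neurons, had 12.1 and 13.2 RPKM in growing cells and 11.1 RPKM in both mTOR-inactive libraries. Its log2 change was -0.17 (SE 0.046; limma, adjusted p = 0.0466). PGAM1 was not called in any fit that left out 1 library (limma, adjusted p = 0.0844 to 0.180). ENO2 lost its call without growing library 2, or without mTOR-inactive library 1 or 2, with limma adjusted p-values of 0.172, 0.119 and 0.119. In the test by transcript the limma adjusted p was 0.0608 for PGAM1 and 0.0613 for ENO2.

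GAPDH, with a log2 change of -0.0090, PGK1, with -0.023, and ENO1, with -0.037, were not called. PGK1, a phosphoglycerate kinase that makes ATP, had 193 and 208 RPKM in growing cells and 194 and 200 RPKM after PP242, so that the growing libraries differed more from each other than the means of the conditions. Of the genes that decide the fate of pyruvate, none was called. LDHA had 442 and 475 RPKM in growing cells and 448 and 462 RPKM in mTOR-inactive cells. LDHB (chr12:21788276-21910791, minus strand) had 797 and 800 RPKM and 803 and 813 RPKM, respectively, with a log2 change of 0.016 (SE 0.019; limma, adjusted p = 0.618). PDK1, which phosphorylates and inhibits pyruvate dehydrogenase, had 5.73 and 6.91 RPKM in growing cells and 5.83 and 6.57 RPKM after PP242.

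In the pentose phosphate pathway, 1 of 6 genes rose, where 4.27% of all genes did. TKT (chr3:53258728-53290068, minus strand), the transketolase of the nonoxidative arm, had 124 and 116 RPKM in growing cells and 132 RPKM in both mTOR-inactive libraries, a log2 change of 0.14 (SE 0.034; limma, adjusted p = 0.0383). Its call was lost without growing library 2, mTOR-inactive library 1 or mTOR-inactive library 2, with log2 changes of 0.086, 0.13 and 0.14. None of the 3 named transcripts of TKT was called alone. PGD, the dehydrogenase of the oxidative arm, had 83.9 and 81.9 RPKM in growing cells and 87.7 and 86.5 RPKM after PP242 (log2 change 0.071; limma, adjusted p = 0.113). RPIA, the isomerase that makes ribose 5-phosphate, had 27.0 and 26.8 RPKM and 25.5 and 23.9 RPKM, respectively, a log2 change of -0.12 (limma, adjusted p = 0.0799). PGLS, TALDO1 and RPE had overlapping conditions and log2 changes of 0.033, 0.010 and 0.037.

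Other genes of the same pathways were counted from lists written with earlier results known. How the calls of these other genes depend on scaling or on single libraries is not given here. Of 38 further HIF pathway and hypoxia-response genes tested as sums per gene, 6 fell (15.8%, against 9.15% of all genes) and 1 rose (2.63%, against 4.27%), with a median log2 change of -0.026. ADM, a vasodilator peptide, had 6.52 and 5.34 RPKM in growing cells and 3.09 and 2.95 RPKM after PP242 (log2 change -0.78, SE 0.079; limma, adjusted p = 0.00104). DDIT4, an inhibitor of mTORC1 signaling, had 28.0 and 30.4 RPKM in growing cells and 21.0 and 21.3 RPKM after PP242 (log2 change -0.45, SE 0.041; limma, adjusted p = 0.000716). The log2 changes were -0.30 for JMJD6, -0.22 for CITED2, which competes with HIF1A for its coactivators, -0.19 for MXI1, a MYC antagonist, and -0.13 for EGLN2, another prolyl hydroxylase. STC2, a secreted glycoprotein, was the gene that rose, with a log2 change of 0.15 (limma, adjusted p = 0.0286).

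Of 29 further genes of glycolysis and pyruvate metabolism, 2 fell (6.90%, a share no larger than the 9.15% of all genes) and 0 rose. The genes that fell were PDP1 and PDP2, the phosphatases that reactivate pyruvate dehydrogenase, with log2 changes of -0.21 (limma, adjusted p = 0.0431) and -0.26 (limma, adjusted p = 0.0185). At an unadjusted p under 0.05 in the same limma fit, 6 of the 29 were lower and 0 were higher, and of the 38 HIF pathway genes 10 were lower and 5 were higher, where 17.7% of all genes were lower and 11.8% were higher. Of 7 further genes of the pentose phosphate pathway 0 were called. One of them, the kinase SHPK, was past 0.05 before adjustment (limma, adjusted p = 0.152).

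LARP1 contacts on the members were few. A site of at least 1 RPM (reads scaled to the library's mapped reads) was listed on LDHB and TPI1 in each condition and on none of the other 30 genes. Among genes with an mRNA of at least 1 RPKM, 1.74% had such a site under growing and 3.84% under mTOR-inactive conditions, against 2 of 30 members. Among genes with an mRNA of at least 100 RPKM the shares were 13.6% and 33.2%, against 2 of 7 members. These limits apply to the mRNA of a gene with the highest RPKM and not to its sum. ALDOA, GAPDH, PGK1, PGAM1 and ENO1, the other 5 of the 7, had no listed site, nor did LDHA and TKT, which reach 100 RPKM only as sums. The PAR-CLIP has no replicate check, so no test was made between conditions, and the files give no read numbers from which a counting interval could be made.

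**Figure D4:**
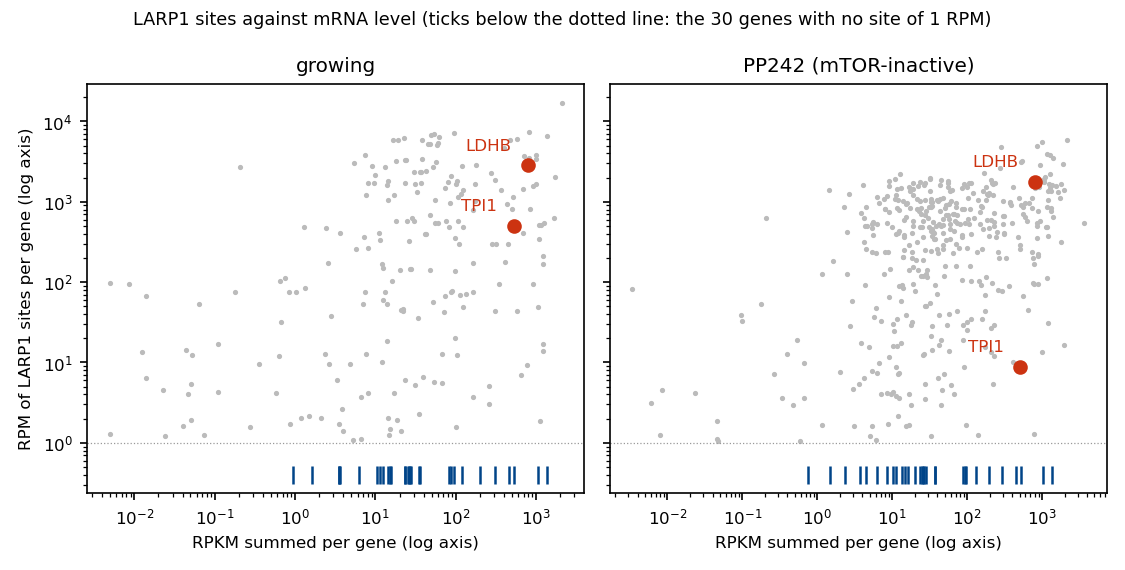
The RPM of LARP1 sites per gene is plotted against the RPKM summed per gene, both on log axes, for every other gene whose sites reach 1 RPM (gray) and for LDHB and TPI1 (red), in growing cells on the left and mTOR-inactive cells on the right. Blue ticks below the dotted line at 1 RPM mark the levels of the 30 member genes without such a site, which reach the level of GAPDH.

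On LDHB the sites lay in different parts of the mRNA in the 2 conditions. Under growing conditions the coding sequence held a site of 23 nt with 2664 RPM, at nt 461 to 483 of NM_002300.6, and a site of 19 nt with 197 RPM at nt 679 to 697. The former put LDHB at rank 14 of 415 genes with a site in the coding sequence. No site in the untranslated regions of LDHB was listed in this condition. Under mTOR-inactive conditions no site in the coding sequence was listed, and a site of 30 nt with 1447 RPM lay in the 5'UTR at nt 45 to 74. This site ranked LDHB 3 of 109 genes with a 5'UTR site. Its RPM was 13.7% of that of 5'UTR sites on mRNAs, counting for each named gene its transcript with the highest sum. A site of 21 nt with 342 RPM lay in the 3'UTR at nt 1289 to 1309. The sites on NM_002300.6 summed to 2862 RPM in growing cells and to 1790 RPM after PP242, while the mRNA level was 799 ± 2.04 and 808 ± 7.27 RPKM (SD, n = 2).

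The T-to-C column of the lists, which the methods do not describe, is a fixed multiple of RPM at most of the larger sites. At the 2664 RPM site of LDHB it was 100% of this multiple and at the 197 RPM site 0.0590%. At the 5'UTR site it was 99.9% and at the 3'UTR site 100%. The second LDHB isoform, NM_001174097.1, carried the coding and 3'UTR sites with the same RPM, but no 5'UTR site was listed on it.

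On TPI1 a single site of 17 nt was listed in the 3'UTR, at nt 790 to 806 of NM_000365.5, in both conditions. It had 505 RPM in growing cells and 8.78 RPM after PP242, and the T-to-C column was 100.0% and 0.0595% of its usual multiple. The same values were listed on the noncoding RNA of TPI1P3, a transcribed pseudogene at 8.11 to 8.59 RPKM, so that the reads cannot be assigned to 1 of the 2 genes. The TPI1 mRNA itself was at 514 to 529 RPKM. Below 1 RPM, growing cells had a 3'UTR site of 0.00180 RPM on EGLN3 and 1 of 0.00100 RPM on GPI.

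**Figure D5:**
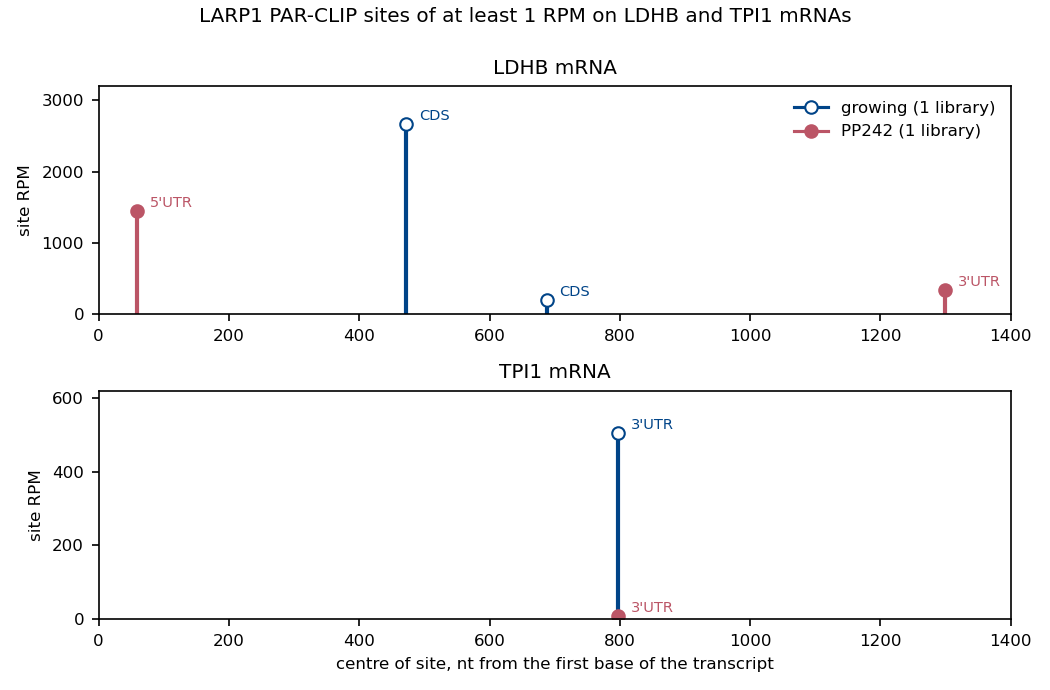
Vertical lines give the RPM of each LARP1 site of at least 1 RPM at its centre, in nt from the first base of the transcript (LDHB, NM_002300.6, above, and TPI1, NM_000365.5, below), open for growing and filled for PP242-treated cells, 1 library each. On LDHB the growing sites of 2664 and 197 RPM lie in the coding sequence and the mTOR-inactive sites of 1447 and 342 RPM lie in the 5'UTR and 3'UTR, while on TPI1 both lie at the same position, with 505 and 8.78 RPM.

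Summed over the members, sites made up 1.28% of the RPM on mRNAs under growing conditions (3367 RPM) and 0.640% under mTOR-inactive conditions (1799 RPM), nearly all from LDHB and TPI1. These shares count, for each named gene, its transcript with the highest sum. Of the further genes of the same pathways, SLC16A1, a lactate transporter, had 2067 RPM in the coding sequence and PRPS1, which makes phosphoribosyl pyrophosphate, had 489 RPM in the coding sequence, both under growing conditions only. The same 489 RPM was listed on PRPS1L1, at 1.31 RPKM, so that these reads may not belong to PRPS1 alone. Under mTOR-inactive conditions PKM, the pyruvate kinase, had 67.8 RPM in the coding sequence and PGM1, phosphoglucomutase, had 343 RPM in the 3'UTR. From the HIF list, EP300 had a site under growing conditions, and WSB1, KDM3A, MXI1 and HIF3A had sites under mTOR-inactive conditions, with up to 840 RPM for WSB1. The HIF3A site had 15.0 RPM, but the level of HIF3A was 0 RPKM in both mTOR-inactive libraries, so that contact with its mRNA is not shown.

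HIF-1 binds the hypoxia response element. The motif ACGTG, a form of the core of this element, was looked for on both strands in the 250 bases before each RefSeq start. Other forms of the core were not looked for. The promoter table holds 30 of the 32 genes, without SLC2A3 and VEGFA. The motif was in 19 of 53 member promoters (35.8%), in 22.8% of the promoters of genes tested and in 18.5% of all 35116 promoters, and by gene in 16 of 30 members (53.3%) and 29.7% of the genes tested. These windows show the motif in genes whose levels overlapped between conditions (PGK1, LDHA, PDK1, BNIP3 and ANKRD37) beside the genes that rose or fell with it (GPI and ENO2). Windows of the other members with the motif are not shown. Sequences are from RefSeq (GRCh38.p14), 5' to 3' on the gene's strand, the positions are those of the exact match in GRCh37, and capitals mark ACGTG or its reverse complement CACGT.
PGK1, chrX:77359540-77359569, plus strand: cggACGTGacaaacggaagccgCACGTctc
LDHA, chr11:18416015-18416044, plus strand: ccgactcaCACGTGggttcccgCACGTccg
PDK1, chr2:173420788-173420817, plus strand: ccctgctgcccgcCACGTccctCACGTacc
BNIP3, chr10:133795544-133795573, minus strand: gcgcacgcgccgCACGTGccacacgcaccc
ANKRD37, chr4:186317827-186317856, plus strand: gggctcCACGTGccagtgtttgtgtACGTG
GPI, chr19:34855722-34855751, plus strand: aacactgcctgtaACGTGgaaggtgttcga
ENO2, chr12:7023613-7023642, plus strand: cacccgcgctcgtACGTGcgcctccgccgg

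Where CACGTG appears in capitals, both strands match in the same place. The letters were not found in the windows of SLC2A1, PGAM1, TKT, HIF1A and EGLN3, all of which were called. Nor were they found in those of HK1, PFKL, ENO1, LDHB, PFKFB4, PGLS, TALDO1, RPIA and RPE, which were not called. A match describes the letters of this window and not a site in use, and elements outside of it were not looked at.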

How the data were processed

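Reads were freed of linkers and aligned by the authors with Bowtie (version not stated) to GRCh37 transcripts. RPKM values for each mRNA-seq library were made by the authors from perfect matches, with multiply matching reads split evenly. Site RPM values were made by the authors from clusters of reads that carry 0 to 2 T-to-C mismatches. The deposited ratio is site RPM over transcript RPKM, times 1000, and the deposited T-to-C column is used as a score, since its making is not described. It equals 25.8 times RPM at 201 of 379 growing sites of at least 100 RPM, and 28.3 times RPM at 542 of 802 mTOR-inactive ones. Numbers of mapped reads are not given in the sources used here.

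From 39711 lines, 1273 repeats were dropped, and 2860 of 5989 unnamed transcripts were named by accession for sums per gene. The test was limma 3.58.1 (R 4.3.3, lmFit and eBayes with trend=TRUE) on log2(RPKM + 1), which understates the change of low transcripts, for all features averaging at least 1 RPKM. P-values were adjusted after Benjamini and Hochberg. RPKM are not counts, so no count test was run. With 2 libraries against 2, an exact permutation test cannot go below p = 0.333, and none was run for single genes. On simulated data for 21014 transcripts of this comparison, 190 of 200 changes of 1.5-fold were recovered with 9 unchanged transcripts called. Of 1.2-fold changes, 0 of 200 were recovered when 200 transcripts changed, and 1744 of 2000 when 2000 did, with 81 unchanged ones called.

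The 32 genes and the pathway lists were chosen with earlier results of these data known. All 32 are described, and other pathway genes are named where they were called, had a site or stood beside a named result. Site RPM was summed over the transcript with the highest sum. Alternatives were other pseudocounts, filters, scalings, a replicate block, leaving out each library, 1 transcript per gene and other site minimums. Sums per gene, with their own alternatives, were chosen after seeing the data. Other steps used Python 3.11.15, numpy 2.4.6, pandas 2.3.3 and matplotlib 3.10.9, and gene positions are from GENCODE on GRCh37.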

Additional observations from a re-analysis of the deposited data

How the results depend on the processing

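Of the 5 member transcripts called, 1 higher and 4 lower, the pseudocounts of 0.1 and 10 and the scaling to the same median gave the same counts. The number called higher was 2 with a limit of 5 RPKM, with quantile normalization and with the sums per gene, and 0 without a trend. The number called lower was 2 with 1 transcript per gene and 6 with a limit of 5 RPKM, with quantile normalization and with the sums per gene. Over all transcripts, 559 of 11184 were higher and 1044 lower with a limit of 5 RPKM. Of 21014 transcripts, 866 were higher and 1171 lower with quantile normalization, and 649 and 1193 without a trend. Without a filter on RPKM both numbers were 0, where 57 transcripts were higher and 63 were lower over all 38438. Without 1 library the member transcripts called ranged from 0 to 2 higher and from 1 to 4 lower, with 309 to 348 higher and 546 to 768 lower over all transcripts. For sums per gene, 2 members higher and 6 lower became 0 and 0 without a filter, 3 lower with scaling to the same median, 4 higher with quantile normalization, 0 higher and 3 lower without a trend, and 0 to 1 higher and 3 to 5 lower without 1 library. Over all genes, 95 of 20109 were higher and 193 lower without a filter. Of 12415 genes, 708 were higher and 873 lower with scaling to the same median. The counts were 666 and 954 with quantile normalization and 335 and 762 without a trend, against 530 and 1136 in the main fit. EGLN3, VEGFA and HIF1A as sums lost their call only without a filter, at limma adjusted p = 0.0513, 0.0502 and 0.0559, among the alternatives in which each was tested. The cause of these changes was not tested.

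With a replicate block the number of member transcripts called higher was 2 and that called lower was 6, and the number of sums per gene called higher was 4, as PFKFB4 (limma, adjusted p = 0.0280) and HK1 (limma, adjusted p = 0.0480) were added. Over all 21014 transcripts 716 were then higher and 1419 lower, and over all 12415 genes 625 were higher and 1288 lower. The labels do not say that a replicate number marks a shared culture or day. Over all transcripts tested, the difference between library 2 and library 1 in growing cells correlated with that in mTOR-inactive cells at 0.0401, across transcripts of 4 libraries. For 17 of 30 members library 2 was higher in both conditions (56.7%, against 30.9% of all transcripts), among them PGK1, LDHA, PDK1, BNIP3, PFKFB4 and SLC2A3.

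Log2 changes near 0 turned direction. With scaling to the same median they were 0.0036 for ALDOA, 0.0059 for GAPDH and 0.0058 for LDHA, and with quantile normalization 0.0018 for PFKP and 0.0157 for LDHA. Without 1 library, the ranges of the highest transcript were -0.1702 to 0.0229 for SLC2A3, -0.0058 to 0.0757 for PFKM, -0.0384 to 0.0101 for PFKP, -0.0333 to 0.0166 for ALDOA, -0.0144 to 0.0023 for GAPDH, -0.0762 to 0.0301 for PGK1, -0.0554 to 0.0431 for LDHA, -0.1374 to 0.0945 for PDK1, -0.0112 to 0.0317 for TALDO1, -0.0233 to 0.0784 for RPE and -0.0741 to 0.1522 for BNIP3. GAPDH was called lower with quantile normalization (log2 change -0.0527; limma, adjusted p = 0.0423). No gene was called in a fit that turned its direction.

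For LARP1, 4 members had a site under growing conditions without a minimum RPM. With a minimum of 10 RPM, 1 member had a site under mTOR-inactive conditions. Leaving out sites also listed on another gene left 1 member in each condition, with 2862 RPM in growing cells and 1790 RPM after PP242. The summed RPM was 7238 and 2158 over every listed transcript. As the authors' RPM normalized to RPKM, the sums were 11864 and 3923. For LDHB these took the isoform without the 5'UTR site in growing cells and the isoform with it after PP242. On the latter isoform the growing sites had normalized values of 5829 and 431, in place of 7801 and 577.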
